A study of Homo sapiens with 12 samples.

Results

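The 8 genes described here encode the MYC, MAX and MXD network of transcription factors: MYC, MAX, MXD1, MXD3, MXD4, MXI1, MNT and MGA. They were chosen by name from the 36615 gene symbols of the deposited table, and each of the 8 had a row. All 8 also reached 1 FPKM (fragments corrected for transcript length and for sequencing depth) in at least 3 of the 12 libraries, which 13728 genes did. The cells were HCT116, a human colorectal cancer line, and poly(A) RNA was sequenced on an Illumina HiSeq instrument. Mina53, the JmjC-family protein oxygenase of the gene RIOX2, was depleted (KD) or a scrambled control (SCR) was used, in a line labelled p53 null (p53-/-) and in a line labelled p53 wild type (p53+/+). The groups were thus p53-/- KD, p53-/- SCR, p53+/+ KD and p53+/+ SCR, with 3 libraries each. The sources used here give neither the depletion reagent nor the time of harvest. They also leave out whether either line is a single clone and whether the replicates were grown separately, so p-values reflect library-to-library spread, part of which may be technical.

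MYC, MAX and their relatives are basic helix-loop-helix leucine zipper proteins. MYC binds the DNA element called an E-box only as a pair with MAX, and the pair activates genes of growth, ribosome production and metabolism. MXD1, MXD3, MXD4, MXI1 and MNT compete with MYC for MAX and for the same sites, where they bring in SIN3 and histone deacetylases and repress. MGA also pairs with MAX and scaffolds a Polycomb repressor complex, PRC1.6. In colon epithelium MYC is a classic target of WNT and beta-catenin signalling, and HCT116 carries an activating mutation of beta-catenin.

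The depleted gene followed its labels. RIOX2 averaged 2.02 ± 0.242 FPKM in p53-/- KD cells and 9.09 ± 0.211 in p53-/- SCR cells, and 2.72 ± 0.291 in p53+/+ KD cells and 7.49 ± 0.252 in p53+/+ SCR cells (SD, n = 3 each). Of 10 colon epithelial markers 9 reached 1 FPKM, with sums between 2035 and 2537 FPKM per library. VIL1 did not reach it. Of the fibroblast markers 1 of 7 with a row reached it (COL1A1, sums 6.76 to 12.2 FPKM), of the immune markers 1 of 8 (CD68, sums 4.31 to 9.90 FPKM), and of the endothelial markers 0 of 5 (sums 0.154 to 0.366 FPKM). The fibroblast sum, nearly all COL1A1, was 11.9 ± 0.279 FPKM in p53-/- KD and 7.37 ± 0.277 in p53-/- SCR, and 10.6 ± 0.291 in p53+/+ KD and 7.06 ± 0.368 in p53+/+ SCR. The immune sum, mostly CD68, was 7.72 ± 0.656 FPKM in p53-/- KD and 8.81 ± 0.940 in p53-/- SCR, and 4.88 (4.31 to 5.22) in p53+/+ KD and 8.12 ± 0.831 in p53+/+ SCR. The part of these markers in the results was not tested. In bulk RNA, fewer cells of a type and less RNA per cell cannot be told apart. Genes of the mitochondrial genome took 17.2% of the summed FPKM in p53-/- KD and 13.6% in p53-/- SCR, and 22.1% in p53+/+ KD and 17.1% in p53+/+ SCR. Because FPKM is relative to the whole library, results were recomputed with those genes left out. Calls of the 8 genes that this changed are given beside their results. For the gene lists below only counts were recomputed, not calls by gene.

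Depletion of Mina53 was followed by lower MYC and MAX RNA and higher MXD4 RNA in both lines, while the other antagonists moved differently in the 2 lines. The fall of MYC in p53+/+ cells was small and was not called with mitochondrial genes left out. Changes are given as differences of log2(FPKM + 1) between group means, which understate the change of genes with low values such as MXD1. They were tested with limma, with Benjamini-Hochberg adjustment over all 13728 genes and a threshold of 0.05. In p53-/- cells 5 of the 8 genes changed on depletion, 3 higher and 2 lower, where 58.8% of all genes were called. In p53+/+ cells 7 changed, 1 higher and 6 lower, where 60.7% of all genes were called. The depletion effects differed between the lines for 6 of the 8, and for 32.9% of all genes. The counts in each line are near or only moderately above a background in which most genes were called, so the sizes and directions below carry the description. With mitochondrial genes left out, the background split in p53+/+ depletion was 4990 higher and 3509 lower, against 3916 higher and 4418 lower with them.

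**Figure D1:**
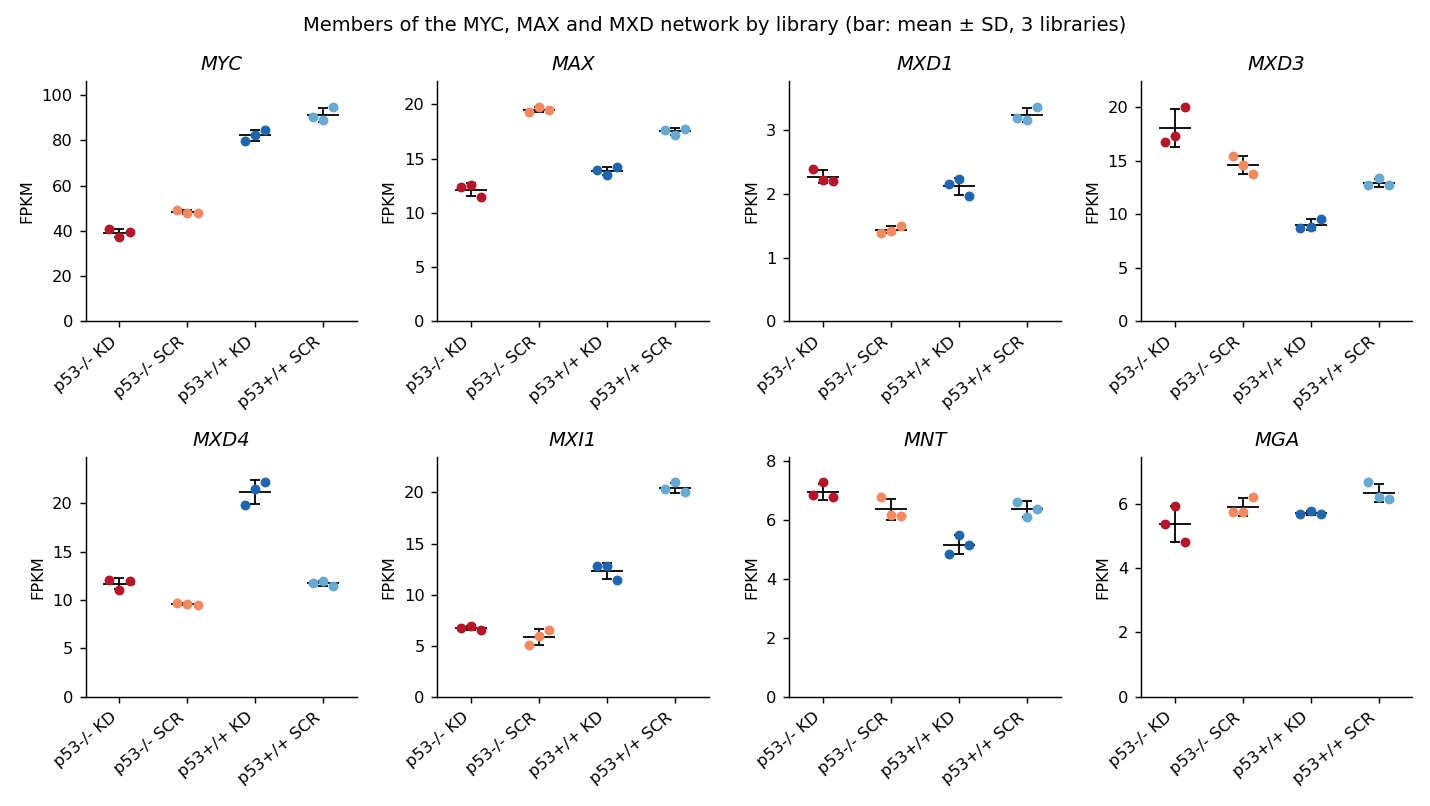
FPKM of each of the 8 genes in every library (points), with the group mean ± SD over 3 libraries (bars); each panel has its own axis starting at 0. MYC separates the 2 lines, MXD4 stands out in p53+/+ KD at 21.1 FPKM and MXI1 in p53+/+ SCR at 20.5 FPKM, while MGA stays between 4.82 and 6.65 FPKM.

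MYC was the most abundant of the 8, ranking 746 of 13728 genes by mean FPKM, and its level was set apart mainly by line. It had 40.7, 37.4 and 39.3 FPKM in p53-/- KD libraries, against 49.4, 47.7 and 47.8 FPKM in p53-/- SCR libraries. In p53+/+ cells it had 79.7, 82.3 and 84.5 FPKM in KD libraries, against 90.4, 89.0 and 94.9 FPKM in SCR libraries. The 4 groups did not overlap, and both p53-/- groups lay below both p53+/+ groups. MYC fell by 0.30 on the log2 scale on depletion in p53-/- cells (SE 0.039, limma adjusted p = 4.01e-05), to 81.0% of the control mean. In p53+/+ cells it fell by 0.15 (SE 0.039, adjusted p = 0.00531), to 89.9% of control. That smaller fall did not pass the threshold when mitochondrial genes were left out (log2 difference -0.06, adjusted p = 0.162). The difference of the 2 effects was -0.15, with a 95% interval of -0.27 to -0.02 before adjustment, a difference that was not called (adjusted p = 0.0627). It was called with mitochondrial genes left out (-0.18, adjusted p = 0.0229) and without p53-/- KD replicate 1 (adjusted p = 0.0398), p53+/+ KD replicate 1 (adjusted p = 0.0480) or p53+/+ SCR replicate 3 (adjusted p = 0.0410). The range without each single library was -0.18 to -0.11.

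Between the lines, MYC was at 47.6% of the p53+/+ level in depleted cells (log2 difference -1.05, SE 0.039, adjusted p = 6.06e-10) and at 52.9% in scrambled controls (-0.91, SE 0.039, adjusted p = 2.37e-09). Genotype and everything else in which the 2 lines differ cannot be told apart. Of the other MYC family genes, MYCL, a lowly expressed paralog, averaged 0.631 ± 0.0285 FPKM in p53-/- KD, 1.01 ± 0.211 in p53-/- SCR, 1.34 ± 0.203 in p53+/+ KD and 1.98 ± 0.174 in p53+/+ SCR. It fell on depletion by 0.30 in p53-/- cells (adjusted p = 0.0133) and by 0.35 in p53+/+ cells (adjusted p = 0.00505), and was lower in p53-/- than in p53+/+ cells whether depleted (-0.52) or not (-0.57). Without p53-/- SCR replicate 3, MYCL was not called in p53-/- depletion. MYCN, the neuronal paralog, was listed at 0 in every library of 3 groups and reached 0.0127 FPKM at most in p53+/+ SCR.

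Of the noncoding genes that neighbour MYC, PVT1 rose and CASC8 fell on depletion in both lines. PVT1, a long noncoding RNA next to MYC, averaged 14.4 ± 1.07 FPKM in p53-/- KD and 11.7 ± 1.06 in p53-/- SCR, and 23.8 ± 0.952 in p53+/+ KD and 20.2 ± 0.983 in p53+/+ SCR. Its rise was 0.27 in p53-/- (adjusted p = 0.00432) and 0.23 in p53+/+ cells (adjusted p = 0.0114), where MYC was lower in FPKM. Like MYC it was lower in the p53-/- line (log2 difference -0.69 between depleted cells and -0.74 between controls). CASC8, a noncoding gene upstream of MYC, fell by 0.49 in p53-/- cells and by 0.92 in p53+/+ cells. CCAT1, a colon cancer associated transcript of the same region, was 1.47 ± 0.201 FPKM in p53-/- KD and 1.75 ± 0.172 in p53-/- SCR, a difference that was not called (-0.16, adjusted p = 0.125). It rose in p53+/+ cells (0.31, adjusted p = 0.00699), with 2.37 ± 0.251 FPKM in KD and 1.72 ± 0.154 in SCR. CASC19 averaged 0.798 to 1.26 FPKM over the 4 groups and was not called in either line, and CASC11 and PCAT1 did not reach 1 FPKM in 3 libraries.

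The 5 genes whose profile over the 12 libraries lay nearest to that of MYC, after each gene was centred on its own mean of log2(FPKM + 1), were GALNT18, PHC2, UNC5B, VGLL4 and AP1S1. Their root-mean-square differences from MYC were 0.081 to 0.099, where the median over 8070 genes with a mean of at least 5 FPKM was 0.594. PHC2, a Polycomb protein, averaged 27.8 FPKM in p53-/- KD, 32.1 in p53-/- SCR, 63.2 in p53+/+ KD and 66.9 in p53+/+ SCR.

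MAX, the shared dimerization partner of the network, fell in both lines and by more in p53-/- cells. It had 12.4, 12.6 and 11.5 FPKM in p53-/- KD libraries, against 19.3, 19.8 and 19.5 FPKM in p53-/- SCR libraries. The p53+/+ line had 13.9, 13.5 and 14.2 FPKM in KD libraries, against 17.7, 17.2 and 17.7 FPKM in SCR libraries. All 6 depleted libraries lay below all 6 controls. The fall was 0.64 on the log2 scale in p53-/- cells (SE 0.041, adjusted p = 7.66e-08), to 62.2% of control, and 0.32 in p53+/+ cells (SE 0.041, adjusted p = 2.8e-05), to 79.2% of control. The difference of the effects was -0.33 (SE 0.057, adjusted p = 0.00116). In depleted cells MAX was lower in p53-/- than in p53+/+ cells (-0.18, adjusted p = 0.00210), while between scrambled controls it was higher in p53-/- cells (0.15, adjusted p = 0.00653). That higher level in controls did not pass under trimmed-mean scaling of the libraries (TMM, 0.09, adjusted p = 0.0585) or with mitochondrial genes left out (0.09, adjusted p = 0.0801).

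MAX overlaps other annotated genes, FNTB, the read-through gene CHURC1-FNTB, MAX-AS1 and MIR4706. The sources used here do not say whether counting used strand, so reads of overlapping stretches cannot be told apart. FNTB, the beta subunit of protein farnesyltransferase, also fell, by 1.08 in p53-/- cells (adjusted p = 0.000107) and by 1.11 in p53+/+ cells (adjusted p = 8.08e-05). It averaged 4.45 ± 0.829 FPKM in p53-/- KD and 10.5 ± 0.616 in p53-/- SCR, and 3.43 ± 0.965 in p53+/+ KD and 8.45 ± 1.42 in p53+/+ SCR. Its part in the fall of MAX was not tested. CHURC1-FNTB was not called in either line (adjusted p = 0.842 in p53-/- and 0.830 in p53+/+).

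Of the antagonists of the MXD family, MXD1 moved in opposite directions in the 2 lines. MXD1 is known to rise as cells leave the cycle and differentiate. It had 2.39, 2.21 and 2.20 FPKM in p53-/- KD libraries, against 1.39, 1.41 and 1.49 FPKM in p53-/- SCR libraries. Values in p53+/+ cells were 2.15, 2.23 and 1.97 FPKM in KD libraries, against 3.19, 3.15 and 3.36 FPKM in SCR libraries. Scrambled controls of the 2 lines lay at opposite ends of the range and the 2 depleted groups overlapped between them. MXD1 rose by 0.43 in p53-/- cells (SE 0.058, adjusted p = 4.79e-05), to 158% of control, and fell by 0.44 in p53+/+ cells (SE 0.058, adjusted p = 2.98e-05), to 65.4% of control. The difference of the effects was 0.87 (SE 0.081, adjusted p = 1.44e-05). Between the lines it was not called in depleted cells (0.07, 95% interval -0.06 to 0.19, adjusted p = 0.314), and in scrambled controls it was lower in p53-/- cells (-0.80, adjusted p = 1.77e-07). Its neighbour ASPRV1, which it overlaps, was not called in either line on depletion.

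MXD3 also moved in opposite directions, and its highest level was in p53-/- KD cells. In normal development MXD3 is the family member known, from mouse, to be expressed in cycling cells. It had 16.8, 17.3 and 20.1 FPKM in p53-/- KD libraries, against 15.4, 14.6 and 13.8 FPKM in p53-/- SCR libraries. In p53+/+ cells it had 8.71, 8.79 and 9.60 FPKM in KD libraries, against 12.8, 13.4 and 12.7 FPKM in SCR libraries. Within each line the groups did not overlap. MXD3 rose by 0.29 in p53-/- cells (SE 0.065, adjusted p = 0.00252) and fell by 0.48 in p53+/+ cells (SE 0.065, adjusted p = 4.81e-05), to 69.8% of control. The effects differed by 0.76 (SE 0.092, adjusted p = 9.85e-05).

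In depleted cells MXD3 was higher in p53-/- than in p53+/+ cells by 0.92 (adjusted p = 1.22e-07). Between scrambled controls the difference of 0.16 was only just called (adjusted p = 0.0477). That call was lost under TMM scaling (adjusted p = 0.229), with mitochondrial genes left out (0.153), with no filter on low values (0.114), with no variance trend (0.0573), with a replicate block (0.0663), and in 8 of the 12 fits that each left out 1 library (highest adjusted p 0.161). Those libraries were p53-/- KD replicate 2, p53-/- SCR replicates 1 and 2, p53+/+ KD replicates 1 and 2, and p53+/+ SCR replicates 1, 2 and 3. MXD3 overlaps PRELID1, which fell on depletion by 0.15 in p53-/- cells (adjusted p = 0.0441) and by 0.19 in p53+/+ cells (adjusted p = 0.0136). Like MXD3, PRELID1 was higher in p53-/- than in p53+/+ cells. The log2 difference was 0.42 in depleted cells (adjusted p = 4.1e-05) and 0.37 in controls (adjusted p = 0.000101). PRELID1 had more FPKM, with 92.3 in p53-/- KD and 69.0 in p53+/+ KD. Its part in the values of MXD3 was not tested.

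MXD4 rose in both lines and had the largest change among the 8 in p53+/+ depletion. MXD4 is a repressor related to MXD1 whose other functions are less well described. It had 12.1, 11.02 and 11.9 FPKM in p53-/- KD libraries, against 9.74, 9.56 and 9.48 FPKM in p53-/- SCR libraries. The p53+/+ line had 19.8, 21.5 and 22.1 FPKM in KD libraries, against 11.7, 11.996 and 11.4 FPKM in SCR libraries. The p53+/+ KD libraries stood apart from the other 9, and p53-/- KD overlapped p53+/+ SCR. The rise was 0.26 in p53-/- cells (SE 0.049, adjusted p = 0.000639), to 122% of control, and 0.80 in p53+/+ cells (SE 0.049, adjusted p = 4.72e-08), to 180% of control. The effects differed by -0.54 on the log2 scale, the rise being smaller in p53-/- cells (SE 0.069, adjusted p = 0.000133). MXD4 was lower in p53-/- than in p53+/+ cells both when depleted (-0.80, adjusted p = 3.12e-08) and in controls (-0.26, adjusted p = 0.000465).

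MXI1, also called MXD2, had the widest range of group means of the 8, 1.65 on the log2 scale, more than 96.9% of the 13728 genes. It is known to be induced in hypoxia. It had 6.75, 6.92 and 6.59 FPKM in p53-/- KD libraries, against 5.05, 5.99 and 6.59 FPKM in p53-/- SCR libraries. Values in p53+/+ cells were 12.8, 12.8 and 11.4 FPKM in KD libraries, against 20.4, 21.0 and 20.1 FPKM in SCR libraries. The p53-/- groups overlapped each other, and both lay below the p53+/+ groups, which did not overlap.

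MXI1 fell by 0.69 in p53+/+ cells (SE 0.073, adjusted p = 5.22e-06), to 60.3% of control. In p53-/- cells the difference was 0.18 (SE 0.073), with a 95% interval of 0.02 to 0.34 before adjustment, and narrowly missed the threshold (adjusted p = 0.0512). It passed with a pseudocount of 0.1 (adjusted p = 0.0481), under TMM scaling (0.0267), with mitochondrial genes left out (0.0234), without p53-/- SCR replicate 3 (0.25, adjusted p = 0.00795) and without p53+/+ KD replicate 3 (adjusted p = 0.0442). Its log2 difference was between 0.09 and 0.25 when each library in turn was left out. The effects differed by 0.87 (SE 0.103, adjusted p = 8.45e-05). Between the lines MXI1 was at 54.7% of the p53+/+ level in depleted cells (-0.78, adjusted p = 1.39e-06) and at 28.7% in scrambled controls (-1.65, adjusted p = 2.63e-09). The 5 genes nearest to it in profile were PAM, ANKZF1, PTP4A1, CHPT1 and PLIN2, at root-mean-square differences of 0.118 to 0.166, where the median over the 8070 genes was 0.742. PLIN2, a lipid droplet coat protein, averaged 15.6 FPKM in p53-/- KD, 12.6 in p53-/- SCR, 32.1 in p53+/+ KD and 48.8 in p53+/+ SCR.

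MNT, the broadly expressed antagonist, changed on depletion in p53+/+ cells. It had 6.82, 7.26 and 6.76 FPKM in p53-/- KD libraries, against 6.77, 6.17 and 6.12 FPKM in p53-/- SCR libraries. In p53+/+ cells it had 4.84, 5.48 and 5.14 FPKM in KD libraries, against 6.61, 6.09 and 6.37 FPKM in SCR libraries. The p53+/+ KD libraries were the lowest and the other 3 groups overlapped in part. MNT fell by 0.26 in p53+/+ cells (SE 0.056, adjusted p = 0.00171), to 81.1% of control. The difference in p53-/- cells was 0.11 (95% interval -0.01 to 0.24, adjusted p = 0.105) and passed with mitochondrial genes left out (0.17, adjusted p = 0.0225) and without p53-/- SCR replicate 1 (0.15, adjusted p = 0.0479). The effects differed by 0.37 (SE 0.080, adjusted p = 0.00403). MNT was higher in p53-/- than in p53+/+ cells when depleted (0.37, adjusted p = 0.000101), and in controls the difference was -0.0012 (95% interval -0.12 to 0.12, adjusted p = 0.987).

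MGA varied least, with a range of group means of 0.20, wider than that of only 6.45% of genes, and was not called in any comparison. It had 5.37, 5.94 and 4.82 FPKM in p53-/- KD libraries, against 5.74, 5.74 and 6.21 FPKM in p53-/- SCR libraries. The p53+/+ line had 5.66, 5.77 and 5.68 FPKM in KD libraries, against 6.65, 6.21 and 6.13 FPKM in SCR libraries. The p53-/- groups overlapped, and the p53+/+ groups did not. The log2 difference on depletion was -0.12 in p53-/- cells (95% interval -0.25 to 0.02, adjusted p = 0.132) and -0.13 in p53+/+ cells (95% interval -0.27 to 0.0089, adjusted p = 0.0966). Without p53-/- KD replicate 2, the lower level in p53-/- KD cells passed the threshold (-0.18, adjusted p = 0.0267).

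**Figure D2:**
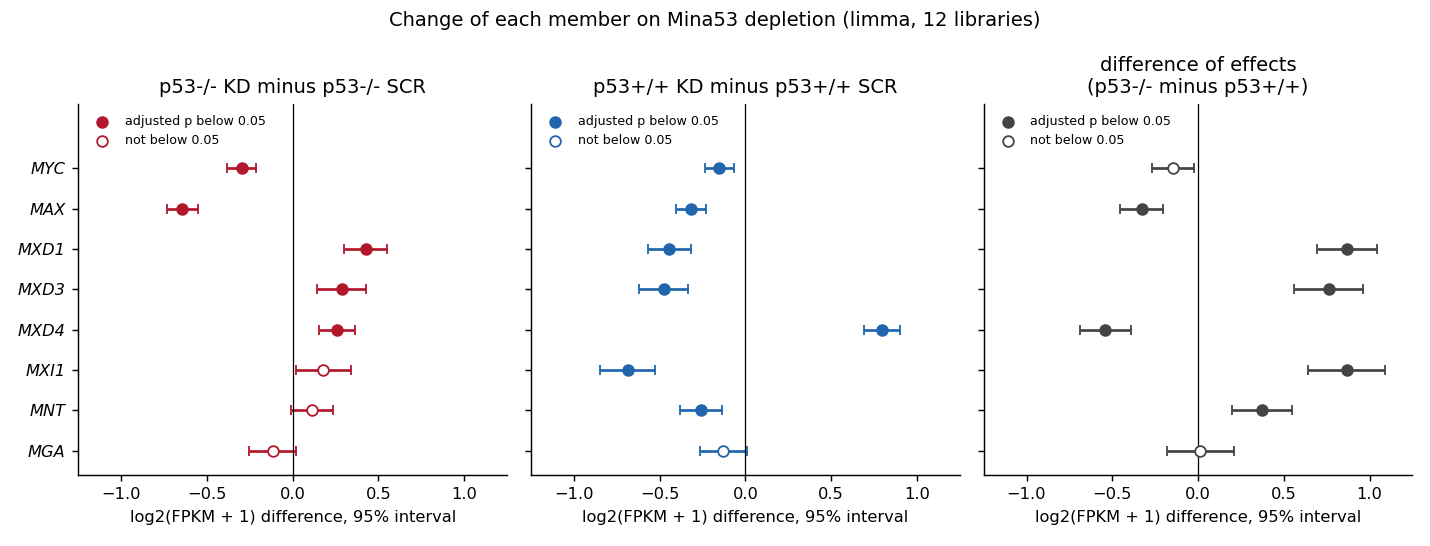
Difference in log2(FPKM + 1) between KD and SCR in p53-/- cells (left) and p53+/+ cells (middle), and the difference of those effects (right), with 95% intervals before adjustment; filled points had a limma adjusted p below 0.05. MYC and MAX lie left of 0 in both lines and MXD4 right of 0, while MXD1 (0.43 and -0.44) and MXD3 (0.29 and -0.48) change sides.

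Between the lines, 6 of the 8 genes were called in depleted cells, 2 higher and 4 lower in p53-/- than in p53+/+ cells, where 64.3% of all genes were called (37% higher, 27.3% lower). Between scrambled controls 6 were also called, again 2 higher and 4 lower, where 63.4% of all genes were called. MYC, MXD4 and MXI1 were lower and MXD3 was higher in p53-/- cells in both comparisons, while MAX was called in opposite directions and MXD1 and MNT were called in only 1 of the 2. These comparisons have no library in common, but share the estimate of each gene's spread. The 2 higher calls in controls, MAX and MXD3, were lost under TMM scaling and with mitochondrial genes left out. Over all genes in depleted cells, 5076 were higher and 3753 lower, against 4119 higher and 4657 lower with mitochondrial genes left out.

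Ratios of members within a library do not move with the scaling of that library, and they are given per length, since FPKM is corrected for length. They say nothing of protein amounts and were not tested. The ratio of MYC to MAX was 3.28, 2.97 and 3.42 in p53-/- KD libraries, against 2.56, 2.41 and 2.45 in p53-/- SCR libraries. It was 5.72, 6.11 and 5.95 in p53+/+ KD libraries, against 5.11, 5.19 and 5.36 in p53+/+ SCR libraries. In both lines the ratio was thus higher in every KD library than in every SCR library, although both RNAs were lower in FPKM. MYC relative to the sum of its 5 MXD, MXI1 and MNT antagonists differed by line: it was 0.908, 0.835 and 0.827 in p53-/- KD, against 1.29, 1.26 and 1.28 in p53-/- SCR. In p53+/+ cells it was 1.65, 1.62 and 1.68 in KD, against 1.65, 1.601 and 1.76 in SCR. The antagonists as a sum exceeded MYC in the 3 p53-/- KD libraries and in none of the other 9, and in p53+/+ cells the groups overlapped.

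**Figure D3:**
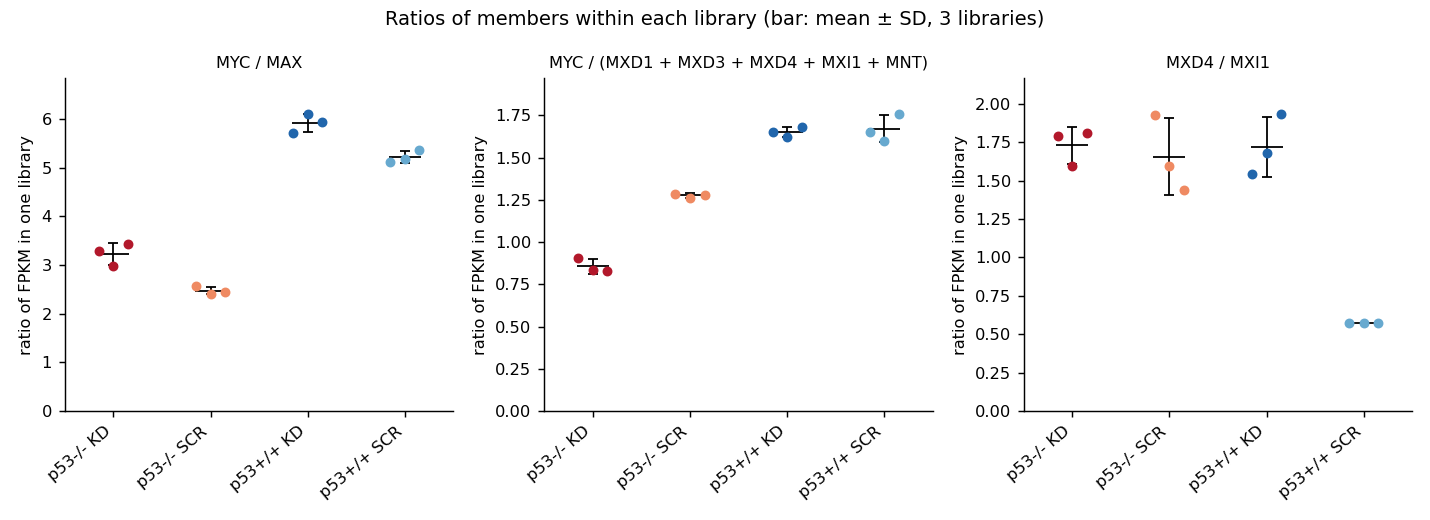
Ratios of FPKM within each library (points) with the group mean ± SD over 3 libraries (bars), for MYC over MAX, MYC over the 5 antagonists together, and MXD4 over MXI1; axes start at 0. MYC over the antagonists is below 1 in p53-/- KD libraries alone, and MXD4 over MXI1 is between 0.571 and 0.576 in p53+/+ SCR libraries and above 1.4 in the other 9.

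The 5 antagonists summed to 45.7 ± 1.57 FPKM in p53-/- KD and 37.9 ± 0.477 in p53-/- SCR, and to 49.8 ± 1.31 in p53+/+ KD and 54.7 ± 0.821 in p53+/+ SCR (SD, n = 3 each). Relative to MAX they were higher after depletion in both lines, with a ratio of 3.77 ± 0.319 in p53-/- KD against 1.94 ± 0.0445 in p53-/- SCR, and 3.59 ± 0.158 in p53+/+ KD against 3.13 ± 0.101 in p53+/+ SCR. Their makeup changed most in p53+/+ cells. MXD4 made up 42.4% ± 1.5 of the sum in p53+/+ KD, against 21.4% ± 0.19 in p53+/+ SCR, while MXI1 made up 24.8% ± 1.9 in p53+/+ KD, against 37.4% ± 0.30 in p53+/+ SCR. The ratio of MXD4 to MXI1 was 1.54 to 1.93 in p53+/+ KD libraries, against 0.571 to 0.576 in p53+/+ SCR libraries, and those ranges lay far apart. In p53-/- cells the ratio was 1.59 to 1.81 in KD libraries, against 1.44 to 1.93 in SCR libraries, and the groups overlapped. MXD3 was the leading antagonist in p53-/- cells, with 39.5% ± 2.5 of the sum in KD and 38.6% ± 1.8 in SCR, against 18.2% ± 0.90 in p53+/+ KD and 23.7% ± 0.36 in p53+/+ SCR.

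**Figure D4:**
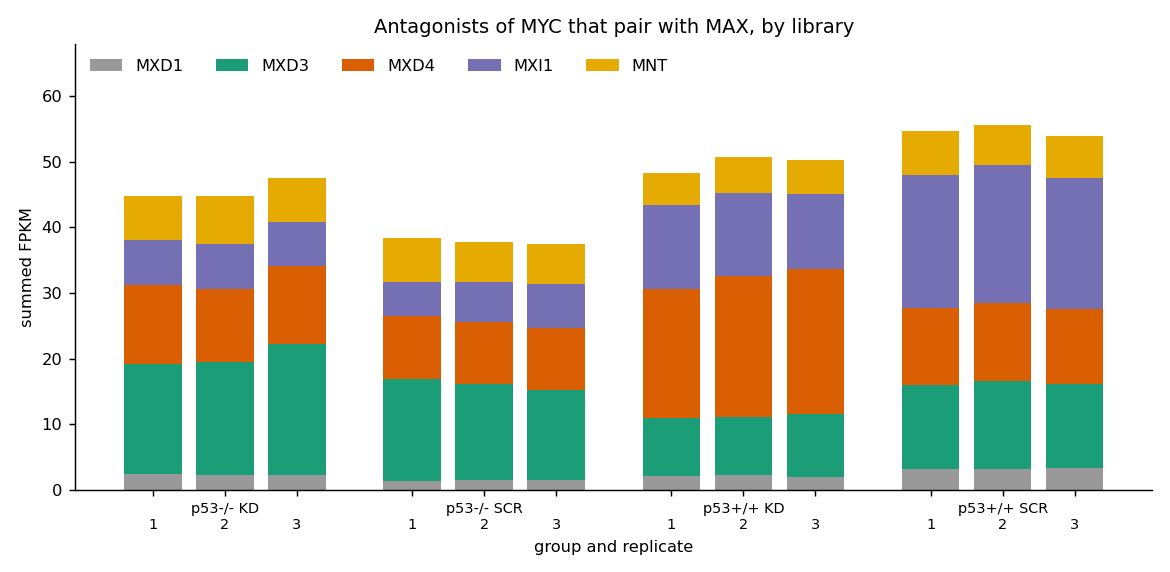
Summed FPKM of the 5 antagonists in each library, stacked by gene, with replicates 1 to 3 of each group on the horizontal axis. The MXD4 segment is the largest in p53+/+ KD libraries (42.4% of the sum on average), MXI1 in p53+/+ SCR libraries (37.4%) and MXD3 in both p53-/- groups (39.5% and 38.6%).

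Because the network acts through the E-box, the core letters CACGTG were searched in RefSeq windows of 300 bases that span each gene start (GRCh38.p14). The motif is its own reverse complement, so both strands read the same. It occurred in 7.26% of 35116 windows, and in 2 of 12 windows of the 7 members found in that table, those of MXD4 and MNT. No window was available for MYC, so its promoter was not searched. The sites are shown with 12 bases on each side, 5′ to 3′ on the strand of the gene (minus for both), with the E-box in capitals.
MXD4, chr4:2262330-2262359, E-box 238 bases before the start: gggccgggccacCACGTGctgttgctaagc
MNT, chr17:2401236-2401265, E-box 193 bases before the start: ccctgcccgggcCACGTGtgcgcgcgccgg
MXD4 rose in both lines and MNT fell in p53+/+ cells, so the 2 members with a match moved in opposite directions there. A match is a stretch of letters and not a measured binding site.

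The parallel branch of the network, in which MLX pairs with the glucose-sensing factors MLXIP (MondoA) and MLXIPL (ChREBP), rose in both lines. All 4 of its measured genes were called higher in each line, where 28.9% of all genes were called higher in p53-/- depletion and 28.5% in p53+/+ depletion. MLX averaged 38.1 ± 0.998 FPKM in p53-/- KD and 28.0 ± 0.637 in p53-/- SCR (log2 difference 0.43, adjusted p = 5.54e-07), and 27.1 ± 0.690 in p53+/+ KD and 21.9 ± 0.323 in p53+/+ SCR (0.30, adjusted p = 1.19e-05). MLXIP rose by 0.18 in p53-/- cells and by 0.42 in p53+/+ cells, and the effects differed by -0.24 (adjusted p = 0.00231). MLXIPL rose by 0.21 in p53-/- cells and by 0.40 in p53+/+ cells, and the difference of its effects was not called (-0.19, adjusted p = 0.133).

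ARRDC4, an arrestin-like target of MondoA that limits glucose uptake, had the largest change of that branch. It averaged 5.76 ± 0.695 FPKM in p53-/- KD and 1.53 ± 0.0793 in p53-/- SCR, and 2.57 ± 0.174 in p53+/+ KD and 0.913 ± 0.101 in p53+/+ SCR. The rise was 1.41 in p53-/- cells (adjusted p = 3e-08) and 0.90 in p53+/+ cells (adjusted p = 1.09e-06), and the effects differed by 0.51 (adjusted p = 0.00456). TXNIP, its better known relative, was listed at 0 in both SCR groups and reached 0.0255 FPKM at most in the others, and was not tested. E-boxes lie in the windows of 2 of the 5 genes of this branch, MLX and ARRDC4, both shown because both genes rose in each line, on the plus strand with the motif in capitals.
MLX, chr17:42567038-42567067, E-box 50 bases before the start: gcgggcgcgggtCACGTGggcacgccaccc
ARRDC4, chr15:97960481-97960510, E-box 210 bases before the start: aaacggcctgtgCACGTGcacgccggagcc

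Among 14 cofactors listed as partners of MYC, which may aid or restrain it, 10 fell and 1 rose in p53-/- cells. In p53+/+ cells 10 fell and 3 rose. Over all genes 29.9% were called lower and 28.9% higher in p53-/- depletion, and 32.2% lower and 28.5% higher in p53+/+ depletion. The median log2 difference of the 14 was -0.31 in p53-/- and -0.18 in p53+/+ cells, beside -0.0028 and -0.016 over all genes. With mitochondrial genes left out the p53+/+ count was 6 lower and 3 higher. Which genes lost the call was not worked out, and small p53+/+ falls such as those of TRRAP and KAT2A may be among them. RUVBL1, a helicase-like subunit of chromatin remodelling complexes, had the largest fall, 1.06 in p53-/- cells (adjusted p = 8.34e-10) and 0.71 in p53+/+ cells (adjusted p = 1.8e-08). TRRAP, the scaffold that links MYC to histone acetyltransferases, fell by 0.36 in p53-/- and by 0.14 in p53+/+ cells, and KAT2A, such an acetyltransferase, by 0.35 in p53-/- and by 0.16 in p53+/+ cells. BIN1, a MYC-interacting adaptor, fell by 0.25 in p53-/- and by 0.67 in p53+/+ cells, and SUPT5H, an elongation factor, rose in p53+/+ cells by 0.28 and was not called in p53-/- cells (0.06).

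The corepressors through which the antagonists act were called in both directions, at shares near those of all genes. Of 17 genes of the SIN3, histone deacetylase and NCOR complexes, 5 rose and 6 fell in p53-/- cells, and 3 rose and 7 fell in p53+/+ cells, with medians of 0.06 and -0.09. Over all genes 28.9% were called higher and 29.9% lower in p53-/- depletion, and 28.5% higher and 32.2% lower in p53+/+ depletion. The 2 SIN3 scaffolds were called in opposite directions in each line. SIN3B averaged 21.0 ± 0.426 FPKM in p53-/- KD and 16.2 ± 0.325 in p53-/- SCR, and 21.4 ± 0.0930 in p53+/+ KD and 14.1 ± 0.343 in p53+/+ SCR. SIN3A averaged 10.2 ± 0.361 FPKM in p53-/- KD and 11.7 ± 0.134 in p53-/- SCR, and 8.94 ± 0.201 in p53+/+ KD and 12.2 ± 0.261 in p53+/+ SCR. The SIN3B rise was 0.36 in p53-/- cells (adjusted p = 2.84e-06) and 0.57 in p53+/+ cells (adjusted p = 4.51e-08), while SIN3A fell by 0.19 in p53-/- (adjusted p = 0.0015) and by 0.41 in p53+/+ cells (adjusted p = 2.08e-06). BRMS1, a subunit of the SIN3 complex, fell by 0.67 in p53-/- and by 0.43 in p53+/+ cells.

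PRC1.6, the Polycomb complex that holds MGA and MAX, had 15 measured subunits, of which 4 rose and 6 fell in p53-/- cells and 3 rose and 8 fell in p53+/+ cells. That is 26.7% higher and 40% lower in p53-/- depletion, where 28.9% and 29.9% of all genes were, and 20% higher and 53.3% lower in p53+/+ depletion, where 28.5% and 32.2% were. Beside MAX, the smallest adjusted p-values in each line were those of CBX1, a heterochromatin protein that rose by 0.39 in p53-/- and by 0.21 in p53+/+ cells, and of TFDP1, an E2F partner that fell by 0.39 in p53-/- and by 0.60 in p53+/+ cells. L3MBTL2, a chromatin reader of the complex, was higher in p53-/- than in p53+/+ scrambled controls (0.72, adjusted p = 7.12e-07). Of 15 genes listed as silenced by PRC1.6, mostly germline genes known from mouse cells, 3 were measurable (ALDH1L1, ZCWPW1 and TDRKH). ALDH1L1 is not restricted to the germline, so its values are no readout of germline silencing. In p53-/- depletion ALDH1L1, a folate enzyme, fell by 1.33, with 4.47 ± 0.241 FPKM in KD and 12.7 ± 0.894 in SCR, and ZCWPW1 fell by 0.27. In p53+/+ cells ALDH1L1 averaged only 0.0136 FPKM in KD and 0.0122 in SCR, so it passed the filter through p53-/- libraries alone.

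Factors known to act on MYC itself were called in both directions, with more falls than rises in p53+/+ cells. Of 12 that act on MYC transcription or MYC mRNA, 4 rose and 3 fell in p53-/- cells, where 28.9% of all genes were called higher and 29.9% lower, and 1 rose and 7 fell in p53+/+ cells, where 28.5% were called higher and 32.2% lower. The p53-/- counts are close to that background. CTNNB1, beta-catenin, rose in both lines, by 0.39 in p53-/- cells (adjusted p = 5.56e-07) and by 0.63 in p53+/+ cells (adjusted p = 7.94e-09), where MYC was lower in FPKM. HNRNPK, an RNA-binding regulator, fell by 0.15 in p53-/- and by 0.43 in p53+/+ cells, and CDK9, the elongation kinase, fell by 0.31 in p53-/- and by 0.39 in p53+/+ cells. CCNT1, the cyclin of CDK9, rose by 0.45 in p53-/- cells and was not called in p53+/+ cells (0.07), and TCF7, a partner of beta-catenin, fell by 0.41 in p53-/- and by 0.18 in p53+/+ cells. Of 17 genes acting on MYC protein, 4 rose and 7 fell in p53-/- cells. That is 23.5% higher and 41.2% lower, against 28.9% and 29.9% of all genes. In p53+/+ cells 4 rose and 10 fell, which is 23.5% higher and 58.8% lower, against 28.5% and 32.2% of all genes. PPP2R5A, the phosphatase subunit that helps mark MYC for degradation, fell in both lines, by 0.95 in p53-/- and by 0.86 in p53+/+ cells. AURKA, a mitotic kinase that protects MYC proteins, fell by 0.75 in p53+/+ cells, was not called in p53-/- cells (0.04), and its effect differed between the lines by 0.79 (adjusted p = 1.3e-05). USP28, a deubiquitinase of MYC, fell by 0.47 in p53-/- and by 0.90 in p53+/+ cells. MAPK3 (ERK1) and GSK3A, kinases of the MYC phosphodegron pathway, fell in both lines, MAPK3 by 1.08 in p53-/- and by 0.71 in p53+/+ cells and GSK3A by 0.56 in p53-/- and by 0.40 in p53+/+ cells.

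Textbook targets that MYC activates were mostly lower after depletion in both lines. Of 45 measured, 31 fell and 2 rose in p53-/- cells, and 25 fell and 9 rose in p53+/+ cells, which is 68.9% and 55.6% lower where 29.9% and 32.2% of all genes were called lower. Their median log2 difference was -0.25 in p53-/- and -0.22 in p53+/+ cells. In p53+/+ depletion such a share lower was not particular to these targets. There 58.3% of the factors acting on MYC RNA, 58.8% of those acting on MYC protein and 55.6% of 9 epithelial markers were lower. Of the corepressors 41.2% were. In p53-/- depletion these shares were 25%, 41.2%, 33.3% and 35.3%. HSPD1, a mitochondrial chaperone, averaged 117 ± 4.30 FPKM in p53-/- KD and 362 ± 9.23 in p53-/- SCR, and 183 ± 7.42 in p53+/+ KD and 411 ± 7.95 in p53+/+ SCR. NCL, nucleolin, averaged 102 ± 0.205 FPKM in p53-/- KD and 218 ± 3.61 in p53-/- SCR, and 122 ± 6.09 in p53+/+ KD and 229 ± 6.599 in p53+/+ SCR. In p53-/- cells the log2 fall was 1.61 for HSPD1, 1.09 for NCL and 0.69 for CDK4, the cyclin D kinase, and in p53+/+ cells it was 1.16 for HSPD1, 0.90 for NCL and 0.63 for CDK4.

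HK2 and LDHA, targets of glycolysis, fell by more in p53+/+ cells. HK2, hexokinase 2, averaged 6.33 ± 0.177 FPKM in p53-/- KD and 9.83 ± 0.344 in p53-/- SCR, and 9.50 ± 0.655 in p53+/+ KD and 27.9 ± 1.44 in p53+/+ SCR, and its effects differed by 0.90 (adjusted p = 7.85e-06). LDHA, lactate dehydrogenase A, averaged 231 ± 7.12 FPKM in p53-/- KD and 274 ± 3.18 in p53-/- SCR, and 320 ± 11.6 in p53+/+ KD and 628 ± 25.8 in p53+/+ SCR, and its effects differed by 0.73 (adjusted p = 2.92e-06). SLC7A5, an amino acid transporter, went the other way, falling by more in p53-/- cells (difference of effects -0.61, adjusted p = 2.43e-05). Over the whole list the effect differed between the lines for 25 of 45 genes, 6 with a positive and 19 with a negative difference, where 16.7% of all genes had a positive and 16.2% a negative one.

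Between the lines, MYC was lower in p53-/- cells, but in scrambled controls more of these targets were called higher than lower there. Between scrambled controls 26 of the 45 were higher and 12 lower in p53-/- than in p53+/+ cells, where 36.7% of all genes were called higher and 26.6% lower. SLC7A5 and its partner SLC3A2 were higher in p53-/- controls, by 1.26 and 1.23, while LDHA was lower by a log2 difference of -1.19. In depleted cells 18 (40%) were higher and 11 (24.4%) lower, close to the 37% and 27.3% of all genes. That balance turned round to 13 higher and 17 lower under TMM scaling. With mitochondrial genes left out it was 14 higher and 19 lower. E-boxes lay in 36.2% of 58 windows of 38 of these genes, against 7.26% of all windows. The list was made of known MYC targets, so this excess says nothing of MYC activity in these cells. Sites are shown for the targets named above for their changes on depletion that hold a match, again with the motif in capitals and on the strand given.
HSPD1, chr2:197500345-197500374, minus: cggccctggcgaCACGTGaaaaaatcaccc
CDK4, chr12:57752509-57752538, minus: atgtcaagcggtCACGTGtgatagcaacag
HK2, chr2:74834964-74834993, plus: gattgctgcgccCACGTGggagggagcccc
LDHA, chr11:18394366-18394395, plus: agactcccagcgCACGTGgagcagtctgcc
SLC7A5, chr16:87869620-87869649, minus: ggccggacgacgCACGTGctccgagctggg
CDK4 held 3 matches, and HK2 and LDHA 2 each, of which the one farthest from the start is printed. The window of NCL held none.

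**Figure D5:**
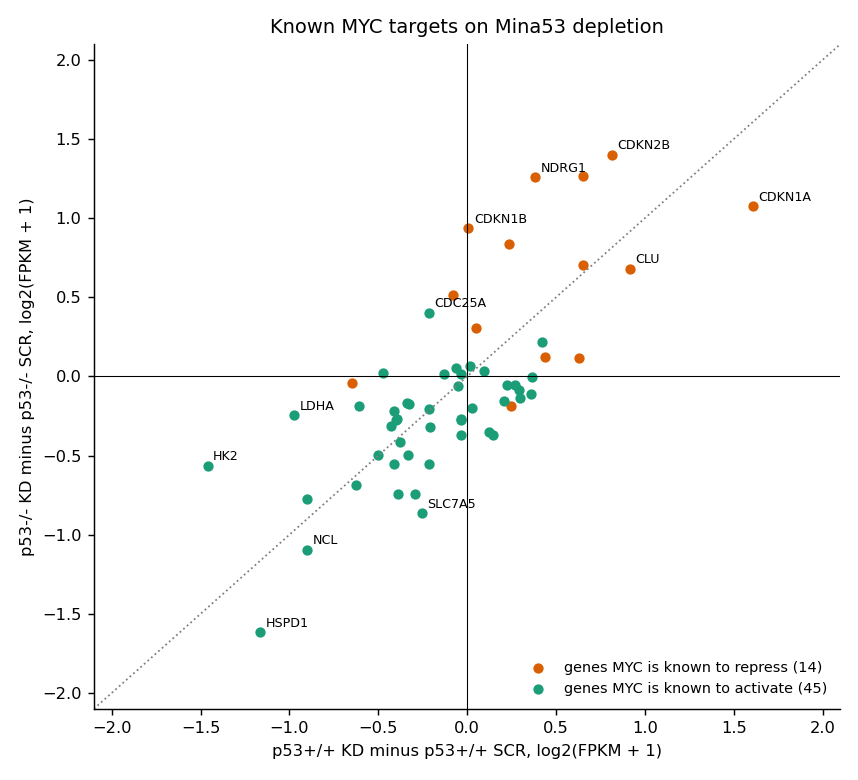
Difference in log2(FPKM + 1) between KD and SCR in p53-/- cells (vertical) and in p53+/+ cells (horizontal), for 45 genes MYC is known to activate (green) and 14 it is known to repress (orange); the dotted line marks equal effects. Most activated targets lie below 0 on both axes, HSPD1 (-1.61 and -1.16) farthest, and most repressed targets above 0.

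Targets that MYC is known to repress were mostly higher after depletion in both lines. Of 14 measured, 10 rose and 1 fell in p53-/- cells, and 10 rose and 1 fell in p53+/+ cells, with medians of 0.69 and 0.41, where 28.9% and 28.5% of all genes were called higher. The 2 comparisons use separate libraries of separate lines, but share the estimate of each gene's spread. CDKN2B, the p15 inhibitor of cyclin-dependent kinases, averaged 7.94 ± 0.287 FPKM in p53-/- KD and 2.39 ± 0.126 in p53-/- SCR, and 6.99 ± 0.163 in p53+/+ KD and 3.56 ± 0.368 in p53+/+ SCR. NDRG1, a growth-restraining gene that hypoxia also induces, averaged 58.0 ± 1.41 FPKM in p53-/- KD and 23.7 ± 1.36 in p53-/- SCR, and 354 ± 17.2 in p53+/+ KD and 272 ± 18.9 in p53+/+ SCR. CDKN1B, the p27 inhibitor, averaged 22.9 ± 0.771 FPKM in p53-/- KD and 11.5 ± 0.427 in p53-/- SCR, and 9.51 in p53+/+ KD (8.68 to 10.6) and 9.43 ± 0.222 in p53+/+ SCR, and its effects differed by 0.93 (adjusted p = 1.35e-05). CDKN1A, the p21 inhibitor, is on this list but is also a direct target of p53. It rose by 1.07 in p53-/- and by 1.61 in p53+/+ cells, and lay lower in the p53-/- line (log2 difference -3.51 between depleted cells and -2.98 between controls). CLU, clusterin, rose by 0.68 in p53-/- and by 0.92 in p53+/+ cells, and ITGB1, an integrin, by 0.71 in p53-/- and by 0.65 in p53+/+ cells. Between scrambled controls of the 2 lines 6 of the 14 repressed targets were higher and 6 lower in p53-/- cells, where 36.7% of all genes were called higher and 26.6% lower.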

How the data were processed

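Poly(A) RNA of 12 HCT116 libraries was read as FPKM from 1 table the authors deposited. Its header names no unit. FPKM was inferred because values are not whole and their sums, 348822 to 372821 per library, fit no unit of fixed total. Per the submitters' processing notes, hg19 was the genome build. The sources used here name no aligner, counter, annotation or strand setting. Low values show no whole-read steps (1.84% of 3646 low genes within 1% of the commonest ratio), so depth and counting error are unknown. Columns prefixed KO were read as p53-/-.

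Genes with at least 1 FPKM in at least 3 libraries (13728) were tested on log2(FPKM + 1) in limma 3.58.1 (R 4.3.3) with 1 mean per group, a variance trend and 8 residual degrees of freedom. P-values were Benjamini-Hochberg adjusted over all genes tested, with a threshold of 0.05. The fit was tested on simulated data. The effects of depletion in the 2 lines share no library, but all comparisons share the estimate of each gene's spread. Each comparison between the lines shares libraries with the depletion effects. The 8 members and the 16 gene lists were chosen with earlier results of these data known, and lists are described by counts and medians only. Members are all named. Of each list, up to 3 genes per comparison were named, those with the smallest adjusted p past the threshold; the MLX branch, the MYC paralogs and the MYC neighbours are all given. Overlapping genes and promoter windows come from RefSeq tables of GRCh38.p14; the deposited table holds no coordinates. Alternatives were another pseudocount, no filter, TMM-type scaling, leaving out mitochondrial genes, only the groups compared, no trend, a replicate block and leaving out each library.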

Additional observations from a re-analysis of the deposited data

Results flagged for a closer look

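For 6 of the 8 genes the effect of depletion in p53-/- cells differed from that in p53+/+ cells by limma's test of the difference itself (log2 difference of the effects, p53-/- minus p53+/+, adjusted over 13728 genes, of which 32.9% were called). MXD1 had a difference of 0.87, MXI1 of 0.87 and MXD3 of 0.76, each positive. MNT had a smaller positive difference of 0.37. MAX had a difference of -0.33 and MXD4 of -0.54. For MXD1 and MXD3 every depleted library lay above every control library in p53-/- cells and below every one in p53+/+ cells. MAX fell and MXD4 rose in both lines, so for them the difference is one of size. RIOX2 itself fell by more in p53-/- cells (difference -0.55, adjusted p = 0.00142), and the part of that in these differences was not tested.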

How the results depend on the processing

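In 19 alternatives no count of members or of all genes called moved by more than 1.5 times, and of the values of single members 716 kept their direction and call, 16 lost and 12 gained a call, and 8 reversed. The reversed values were all close to 0 and not called. For MGA the difference of effects (0.012) was -0.012 with mitochondrial genes left out and ranged from -0.051 to 0.076 without each library. For MNT between scrambled controls (-0.0012) it ranged from -0.042 to 0.024 without each library. The cause was not tested. Among counts over lists, taken in either direction, 1027 stayed within 1.5 times and 6 did not, all on lists with at most 3 calls; counts in 1 direction moved more, as given for MYC cofactors and activated targets. Calls of members that changed stand beside their results. The call changed under 13 alternatives for MXD3 between controls, 5 for MXI1 in p53-/- depletion and 4 for MYC in the difference. Same-numbered replicates shared no deviation (correlations -0.23 to 0.16, 1 of 18 pairs over 0.1), so the numbers were not taken as pairs. With a replicate block 7818 genes were called in p53-/- depletion and 8123 in p53+/+ depletion, and 4139, 8520 and 8627 in the difference, between controls and between depleted cells; it ended the call of MXD3 between controls (0.16, adjusted p = 0.0663) and no other of a member. Using only the groups compared gives no value for the difference. With depth unknown, no counting error could be set beside the lowest values, such as those of MXD1.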
